A study of Mus musculus with 27 samples.

Results

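The genes described here are 10 that mark the adipocyte: the adipokines Adipoq, Lep and Retn, the transcription factors Pparg and Cebpa, and the lipid storage and lipolysis genes Fabp4, Plin1, Cidec, Lipe and Pnpla2. They were taken by symbol from the deposited table, which held all 10 among its 36333 genes. RNA-seq was made from omental adipose tissue, liver and skeletal muscle of MlxKO mice, with 4 mice at 5 months and 5 mice at 20 months for each tissue, 27 samples in all. Every mouse came from a cross of Mlx Flox/Flox animals with a B6.129 strain that carries Gt(ROSA)26Sortm1(cre/ERT2)Tyj, and was given 5 daily injections of tamoxifen in corn oil around weaning. The targeted gene and the drug were thus common to all 6 groups, but the extent of the loss was not. In the study's own measurements, more Mlx expression was left in skeletal muscle than in adipose tissue or liver. The part of this in the differences between tissues was not tested. The CreER transgene sits in the ubiquitously active ROSA26 locus, and the deletion was therefore not restricted to adipocytes. The 4 mice at 5 months gave all 3 tissues and are called A, B, C and D here in the order of their label numbers, whereas the samples at 20 months carried a different number in each tissue. The study states that its transcriptomes were from male mice. The sample titles of the mice labelled 20 months carry the number 18. The study's supplement also lists animals at 18 months whose tissues and last digits match these samples. Their exact age is therefore not settled, and the labelled age is used here. Mice with an intact Mlx gene were not analysed here, so each comparison is between ages or tissues within MlxKO.

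White adipocytes store triacylglycerol in a large lipid droplet and release it as fatty acids when other organs need fuel. Pparg and Cebpa encode the nuclear receptor and the basic leucine zipper factor that drive adipocyte differentiation and maintain each other's expression. Plin1 encodes perilipin 1, which coats the droplet and restrains lipolysis, Cidec a protein that lets droplets fuse and grow, and Fabp4 the abundant cytosolic carrier of fatty acids. Pnpla2 encodes adipose triglyceride lipase, which removes the initial fatty acid of a triacylglycerol, and Lipe hormone-sensitive lipase, which acts next on the diacylglycerol. Adiponectin (Adipoq), leptin (Lep) and resistin (Retn) are secreted, and leptin reports the size of the fat stores to the brain. Mlx is the dimerization partner of the glucose-responsive factors ChREBP and MondoA, which bind E-box elements near genes of carbohydrate and lipid metabolism.

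The 250 bases before the transcription start are shown for 4 of the genes, because 2 of them had the largest positive and 2 the largest negative log2 differences between the ages in adipose tissue. The bases are from RefSeq in GRCm38.p6, written from 5′ to 3′ on the strand of the gene. Capitals mark matches, on either strand, to TTGCNNAA (a core recognised by C/EBP factors), AGGTCA (a hexamer recognised by nuclear receptors), CACGTG (an E-box), CCAAT or TATAAA.
Lep (chr6:29059971-29060220, plus strand): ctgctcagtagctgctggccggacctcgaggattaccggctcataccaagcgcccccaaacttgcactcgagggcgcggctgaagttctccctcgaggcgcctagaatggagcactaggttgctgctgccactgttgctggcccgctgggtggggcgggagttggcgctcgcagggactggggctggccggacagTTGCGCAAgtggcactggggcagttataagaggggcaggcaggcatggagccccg
Plin1 (chr7:79732777-79733026, minus strand): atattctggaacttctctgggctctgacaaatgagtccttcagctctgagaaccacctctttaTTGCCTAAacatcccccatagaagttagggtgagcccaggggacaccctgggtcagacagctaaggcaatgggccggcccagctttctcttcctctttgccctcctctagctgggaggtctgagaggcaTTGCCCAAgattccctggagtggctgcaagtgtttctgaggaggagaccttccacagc
Retn (chr8:3655520-3655769, plus strand): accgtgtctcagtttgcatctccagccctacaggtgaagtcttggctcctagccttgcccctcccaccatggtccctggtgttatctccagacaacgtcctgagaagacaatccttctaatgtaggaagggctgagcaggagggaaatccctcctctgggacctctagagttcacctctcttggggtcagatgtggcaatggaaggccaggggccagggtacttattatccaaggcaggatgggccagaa
Pnpla2 (chr7:141454938-141455187, plus strand): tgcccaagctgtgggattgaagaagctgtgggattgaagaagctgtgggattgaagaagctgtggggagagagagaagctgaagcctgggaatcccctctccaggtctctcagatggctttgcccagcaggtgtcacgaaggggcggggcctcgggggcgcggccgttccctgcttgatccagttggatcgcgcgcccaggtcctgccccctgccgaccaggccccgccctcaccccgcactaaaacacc
The windows of Lep and Plin1 held TTGCNNAA, starting 55 bases before the start of Lep, where TTGCGCAA reads the same on both strands, and 187 and 58 bases before the start of Plin1. The windows of Retn and Pnpla2 held none of the 5 motifs. Of 32851 promoter windows of the same length, 9.56% held TTGCNNAA, 14% held AGGTCA, 6.02% held CACGTG, 33.8% held CCAAT and 12.4% held TATAAA. The promoter table held 13 windows for 9 of the 10 genes. Among the windows not printed, TTGCNNAA also occurred in 1 of 3 for Pparg and 1 of 2 for Cidec, and CACGTG in 1 of 2 for Lipe. TATAAA lay 30 bases before the start of Cebpa, and 3 CCAAT matches lay close to the start of Adipoq. A match is a description of the letters and no measurement of binding was made.

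The values are normalised read counts, that is, reads of a gene scaled to its library and to a sample factor. Libraries held 14384695 to 25673919 reads on genes. Mlx itself was counted at 8.19 to 13.9 in adipose tissue, 18.8 to 32.4 in liver and 7.04 to 11.6 in muscle. Without mice that keep the gene, and with reads counted over the whole gene rather than over the deleted exons, these values do not test the deletion. The label of adipose tissue was compared with 12 other adipocyte markers, of which 11 were in the table. All 11 were detected in adipose tissue at both ages, led by Plin4 with a mean of 4254 at 5 months. The same 11 were also detected in liver and in muscle at both ages, so detection alone does not check the label. Their sum does not separate the tissues, since it ran from 8077 to 11278 and from 3486 to 8434 in adipose tissue at 5 and 20 months and from 6081 to 7844 and from 2369 to 5960 in liver, where Pck1, an enzyme of glucose synthesis, led it with means of 6066 and 3305. Markers of pancreas summed to at most 1.40 and markers of epididymis and testis to at most 7.22 in adipose tissue.

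At both ages the adipose tissue stood apart from liver and muscle in these genes. Together, the 10 genes took a median of 2.23% of the reads in adipose tissue at 5 months and 2.32% at 20 months, against 0.0790% and 0.0818% in liver and 0.117% and 0.0890% in muscle. The genes were taken as adipocyte markers, so higher values in adipose tissue were built into the choice and are no finding of the test. Adipoq, Lep, Retn and Plin1 had almost no reads in liver and entered the test through the other tissues. All 10 genes differed between adipose tissue and liver, and between adipose tissue and muscle, at both ages (limma, Benjamini-Hochberg adjusted p under 0.05 in a fit over all 27 samples). Such differences were the rule between tissues: 76.4% and 72.8% of 15572 genes tested passed against liver and muscle at 5 months, and 74.5% and 76% at 20 months. Against muscle, all 10 were higher in adipose tissue at each age, a direction that 41.9% of genes passed at 5 months and 42.1% at 20 months. Against liver, 9 were higher and Cebpa lower, directions passed by 39.9% and 36.5% of genes at 5 months and by 38.8% and 35.7% at 20 months. The samples of the tissues did not overlap for any of the 10 genes in these 4 comparisons, which held for 69.4% (liver) and 62.2% (muscle) of all genes at 5 months and for 58.9% and 67% at 20 months. In bulk tissue, fewer cells of a type and less RNA per cell cannot be told apart.

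**Figure D1:**
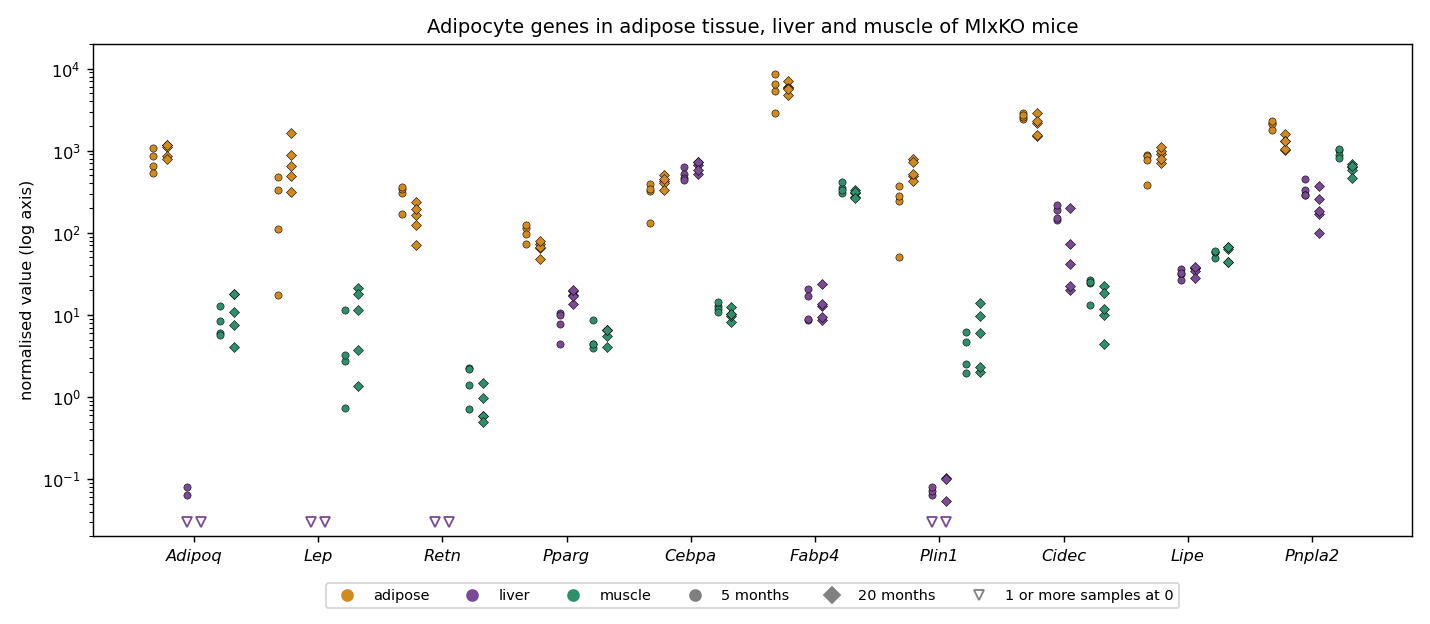
Normalised value (log axis) of each of the 10 adipocyte genes in every sample, with circles for 5 months, diamonds for 20 months and open triangles where at least 1 sample was at 0. The adipose samples lie above the muscle samples for all 10 genes, and Cebpa is the gene whose liver samples lie above them.

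The adipokines were close to absent in liver and low in muscle. Lep and Retn had 0 reads in all 9 liver samples, and with a floor of 3 reads per library Lep was at least 985-fold higher in adipose tissue at 5 months and at least 4671-fold higher at 20 months. For Retn the bounds were 1232-fold and 929.7-fold. Adipoq had 2 reads in all over the 4 livers at 5 months and 0 over the 5 livers at 20 months. In muscle all 3 were counted at a low level: Adipoq at 8.27 ± 3.33 and 11.6 ± 6.11 (mean ± SD, n = 4 at 5 months and n = 5 at 20 months), Lep at 4.51 ± 4.69 and 11.1 ± 8.56, and Retn at 1.63 ± 0.723 and 0.816 ± 0.402. In muscle the Lep value per Adipoq value ran from 0.0857 to 0.881 at 5 months and from 0.333 to 1.18 at 20 months, and in adipose tissue from 0.0331 to 0.447 and from 0.268 to 1.48, so the ranges of the tissues overlapped at each age. Pnpla2 per Adipoq did not overlap between the tissues, at 63.0 to 186 in muscle at 5 months against 1.68 to 4.01 in adipose tissue.

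Against muscle, the smallest gap of the 10 genes was that of Pnpla2, which was 2.25-fold higher in adipose tissue than in muscle at 5 months and 2.09-fold higher at 20 months, and 6.19-fold and 5.79-fold higher than in liver. Fabp4 was 16.5-fold and 19.8-fold higher than in muscle, where it was still counted at 353 ± 44.9 at 5 months. Plin1 was held by 3 reads over the 4 livers at 5 months and 5 reads over the 5 livers at 20 months. Cebpa, which also acts in hepatocytes, was lower in adipose tissue than in liver, at 297 ± 113 against 514 ± 82.6 at 5 months (log2 difference -0.89 ± 0.22 SE, adjusted p = 8.63e-04) and at 425 ± 67.3 against 650 ± 96.5 at 20 months (-0.61 ± 0.20, adjusted p = 0.00739). This direction turned with the scaling of the libraries: with totals taken over all genes but the 20 most abundant, the log2 difference was 0.10 at 5 months and 0.14 at 20 months, and with quantile normalization 0.32 and 0.57. The totals without those 20 genes moved the median of all genes by 0.79 and 0.60 on the same scale. Pparg was 12.6-fold higher in adipose tissue than in liver at 5 months and 3.79-fold higher at 20 months.

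Levels of different genes were compared per kilobase of annotated exon. In adipose tissue at 5 months, the order from the highest was Cidec at 1428 ± 104 per kilobase, Fabp4 at 1297 ± 531, Pnpla2 at 701 ± 75.0, Adipoq at 563 ± 174, Retn at 187 ± 54.5, Lipe at 123 ± 39.95, Cebpa at 113 ± 43.0, Lep at 70.4 ± 62.7, Plin1 at 50.9 ± 29.3 and Pparg at 34.6 ± 7.43. The sample ranges of neighbours in this order overlapped except between Adipoq and Retn. At 20 months Fabp4 stood at the top with 1315 ± 187, then Cidec with 1125 ± 301, Adipoq with 740.3 ± 133 and Pnpla2 with 416 ± 77.1. Lep followed with 237 ± 152 and Retn was ninth, at 100.3 ± 40.7. Here the ranges of neighbours did not overlap between Adipoq and Pnpla2 and between Retn and Pparg. The lengths join all annotated exons of a gene, which can be longer than any transcript of it, so the order between genes depends on the annotation. For Fabp4 the joined length of 4489 bases exceeded the span of its RefSeq locus, so its value per kilobase is understated. Its place below Cidec at 5 months is therefore not settled.

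The comparison of the ages asked whether adipocyte genes differed between young and old adipose tissue of MlxKO mice. The study measured some remaining Mlx expression in adipose tissue at both ages, and the values tended to be higher in the older mice. The part of this in the age differences was not tested. Of the 10 genes, 2 passed the test across all genes in adipose tissue, Pnpla2 and Pparg, and both were lower at 20 months. Of all 14005 genes tested, 19.1% passed (9.75% higher and 9.35% lower at 20 months), so a count of 2 of 10 was near the share of all genes. Without adjustment, p was under 0.05 for 5 of the 10 genes and for 40% of all genes. The count was not stable: it was 2 without mouse 36 and 4 without mouse D, and no gene passed in the other 7 fits that left out 1 mouse each. The log2 difference was above 0 for 6 genes and below 0 for 4, with a median of 0.24 beside 0.01 over all genes. The genes lay on different sides of 0: mean Lep was 3.37-fold and mean Plin1 2.51-fold higher at 20 months, neither past the threshold, while the means of Retn, Pparg, Cidec and Pnpla2 were lower.

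Among the adipokines, the ages overlapped for all 3 genes. Adipoq (gene ID 11450, chr16:23146536-23157968 in GRCm38.p6) was counted at 643, 532, 859 and 1075 in mice A to D at 5 months and at 1180, 1097, 864, 789 and 1182 in mice 36 to 40 at 20 months. The ranges overlapped, and the log2 difference was 0.43 ± 0.24 (SE), with an adjusted p of 0.209. Lep (gene ID 16846, chr6:29060221-29073876) was counted at 112, 17.6, 336 and 480.3 at 5 months and at 316, 1627, 659, 881 and 496 at 20 months, in the same order of mice. Mouse 37 at 20 months was highest and mouse B at 5 months lowest, with a spread of 27.3-fold among the 4 young mice and 5.15-fold among the 5 old ones. The log2 difference of Lep was 2.33 ± 0.87 (adjusted p = 0.0812). All 5 old mice were above the mean of the young mice, and the ranges overlapped.

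Resistin went the other way in value. Retn (gene ID 57264, chr8:3655770-3659818) was counted at 306, 171, 346 and 359 at 5 months and at 240.4, 163, 71.8, 125 and 192 at 20 months. The log2 difference was -0.95 ± 0.35, with an adjusted p of 0.0778. All 5 old mice were below the mean of the young mice, and the overlap came from mouse B. Without that mouse the ranges of Retn did not overlap, at 306 to 359 against 71.8 to 240.4.

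Of the transcription factors, Pparg passed the test and Cebpa did not. Pparg (gene ID 19016, chr6:115360879-115490404) was counted at 115, 123, 97.4 and 73.4 at 5 months and at 65.6, 72.6, 47.7, 66.6 and 78.9 at 20 months. It fell by 0.61 on the log2 scale (SE 0.18, adjusted p = 0.0464), with mouse 40 above the lowest young mouse. The call was close to the threshold: it was lost in 6 of 12 other settings, among them edgeR on the recovered reads (adjusted p = 0.0502, from 4.99e-04 to 0.0722 over the 12), and without mouse B (adjusted p = 0.121). Cebpa (gene ID 12606, chr7:35119293-35121928) was counted at 327, 132, 388 and 341 at 5 months and at 425, 510.2, 401, 329 and 458 at 20 months. The log2 difference was 0.61 ± 0.30 with an adjusted p of 0.154, and it was 0.26 without mouse B. Pparg and Cebpa each overlap an annotated antisense gene on the opposite strand, Gm44079 and Gm45091, and whether reads were counted by strand was not given in the sources used here.

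The genes of the lipid store also lay on different sides of 0. Plin1 (gene ID 103968, chr7:79721164-79732904) was counted at 242, 50.02, 281 and 374 at 5 months and at 491, 785, 432, 527 and 736 at 20 months, so that every old mouse lay above every young one. The log2 difference was 1.61 ± 0.51 with an adjusted p of 0.0542, which missed the threshold. An exact two-sided permutation test gave an unadjusted p of 0.00794 for Plin1, the smallest that 126 divisions of the 9 mice allow. The same test gave 0.0159 for Pnpla2 and Pparg and 0.0476 for Lep, Retn and Cebpa. For Adipoq, Fabp4, Cidec and Lipe it gave 0.111 to 0.770. The ages did not overlap for 2 of the 10 genes, Plin1 and Pnpla2, and for 17.4% of all genes tested. Cidec (gene ID 14311, chr6:113424634-113435760, overlapping the annotated gene Gm52871) was counted at 2872, 2433, 2562 and 2736 at 5 months and at 2863, 2166, 1531, 1558 and 2318 at 20 months, with a log2 difference of -0.38 ± 0.26 and an adjusted p of 0.286. Fabp4 (gene ID 11770, chr3:10204342-10208616) was counted at 5359, 2854, 6514 and 8564 at 5 months and at 6016, 7148, 5847, 4807 and 5693 at 20 months. Its log2 difference was 0.12 ± 0.40 (adjusted p = 0.843), and it turned to -0.19 without mouse B.

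Of the lipases, Pnpla2 changed. Pnpla2 (gene ID 66853, chr7:141455188-141460743) was counted at 2205, 2130, 2331 and 1801 at 5 months and at 1580, 1328, 1009, 1049 and 1313 at 20 months, without overlap. It fell by 0.77 on the log2 scale (SE 0.21, adjusted p = 0.0379) and kept the call in 11 of 12 other settings. The adjusted p ran from 7.02e-05 to 0.291 over those 12, where the highest was without a filter on low genes. Leaving out any 1 of the 9 mice kept the log2 difference between -0.85 and -0.69, while the call held in 2 of the 9 fits and was lost without mouse B (adjusted p = 0.0789). Lipe (gene ID 16890, chr7:25379527-25398486, overlapping the antisense gene 4732471J01Rik) was counted at 878, 378, 868 and 766 at 5 months and at 909, 982, 709, 792 and 1103 at 20 months. Its log2 difference was 0.37 ± 0.27 with an adjusted p of 0.315.

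**Figure D2:**
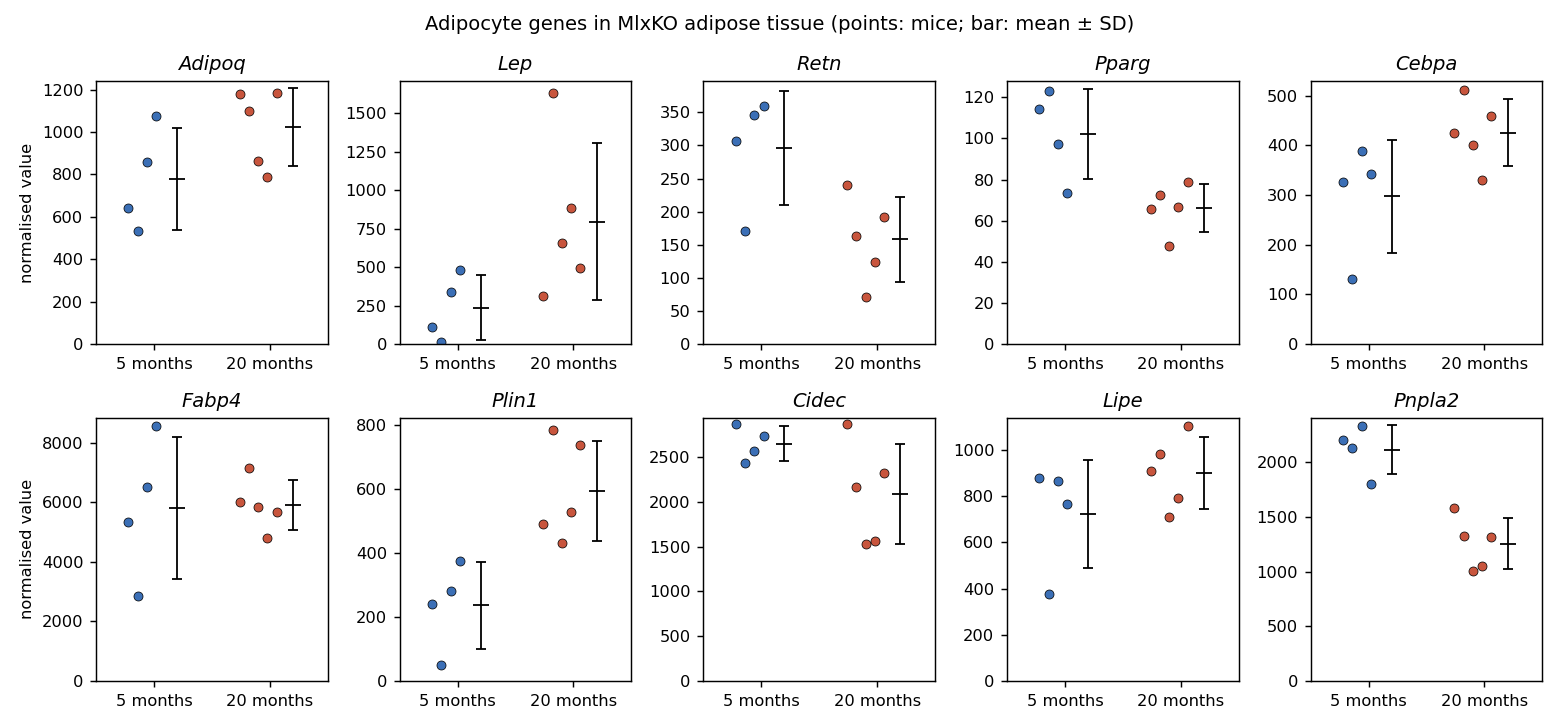
Normalised value of the 10 adipocyte genes in each adipose sample at 5 months (blue, 4 mice) and 20 months (red, 5 mice), with mean ± SD. The ages do not overlap for Plin1 and Pnpla2. For Plin1, Cebpa and Lipe, 1 young mouse lies far below the other 3, and it is also the lowest for Lep.

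That mouse, B, set much of the spread at 5 months. It had the lowest value of the 4 young mice for 8 of the 10 genes in adipose tissue, all but Pparg and Pnpla2. The mean of the other 3 mice was 17.6-fold above it for Lep, 5.97-fold for Plin1, 2.67-fold for Cebpa, 2.39-fold for Fabp4 and 2.22-fold for Lipe, but 1.12-fold for Cidec and 0.992-fold for Pnpla2. Against the 3 remaining young mice, the mean at 20 months was 2.57-fold higher for Lep, 1.99-fold higher for Plin1 and 1.07-fold higher for Lipe, and 0.595-fold for Pnpla2 and 0.470-fold for Retn. Without mouse B in adipose tissue, the lowest adjusted p of the 10 genes in limma was 0.0575, for Plin1, and that of Retn was 0.0742.

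Ratios within a sample do not depend on the scaling of its library. Relative to Adipoq, Pnpla2 ran from 1.68 to 4.01 at 5 months and from 1.11 to 1.34 at 20 months. Retn per Adipoq ran from 0.321 to 0.476 and from 0.0831 to 0.204, Cidec per Adipoq from 2.55 to 4.58 and from 1.77 to 2.43, and Plin1 per Adipoq from 0.0941 to 0.376 and from 0.416 to 0.716. These 4 of the 9 ratios did not overlap between the ages, Plin1 higher and the other 3 lower at 20 months. The same held for 10.5% of all genes when divided by Adipoq. Of the other pairs formed, Lipe per Pnpla2 and Plin1 per Cidec parted without overlap and Lep per Retn did not. Lipe per Pnpla2 ran from 0.178 to 0.425 at 5 months and from 0.575 to 0.840 at 20 months. Plin1 per Cidec ran from 0.0206 to 0.137 and from 0.172 to 0.363, and Lep per Retn from 0.103 to 1.339 and from 1.314 to 9.978. No share over all gene pairs was computed. Lep per Adipoq overlapped, at 0.0331 to 0.447 and 0.268 to 1.48. The ratios were chosen after the values were seen and are given without a test.

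**Figure D3:**
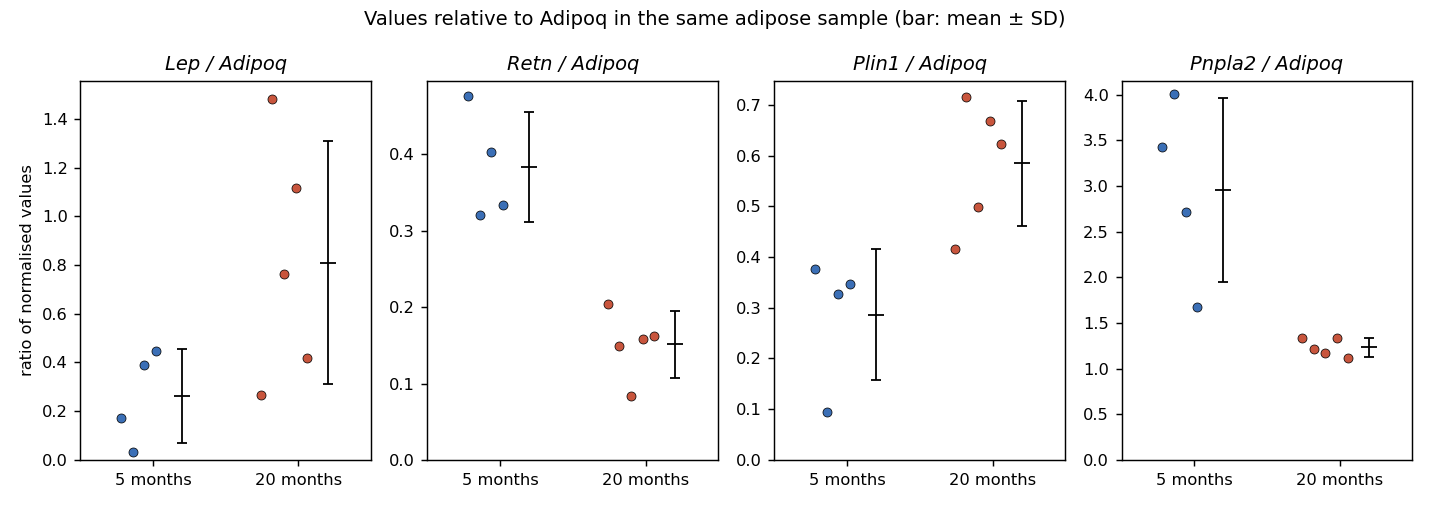
Value of Lep, Retn, Plin1 and Pnpla2 divided by that of Adipoq in the same adipose sample, at 5 months (blue, 4 mice) and 20 months (red, 5 mice), with mean ± SD. The ages overlap for Lep and not for Retn (at most 0.204 at 20 months), Plin1 or Pnpla2.

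Some markers of other cells differed between the ages in the same samples, where 19.1% of all 14005 genes tested passed. Of all genes, 9.75% passed as higher and 9.35% as lower at 20 months. Of 12 macrophage markers 3 rose and 1 fell, and their sum ran from 1005 to 1990 at 5 months and from 1347 to 6334 at 20 months. All 6 B cell markers rose, with sums of 3.33 to 19.1 and 13.2 to 178. Of 6 endothelial markers 3 fell (sums of 641 to 1372 and 407 to 736), and of 8 mesothelial markers 4 fell (91.2 to 183 and 48.4 to 108). Of the 11 other adipocyte markers 4 rose and 2 fell. Of the T cell markers 1 of the 5 tested rose and Trac was at 0 in all 9 samples, and of the neutrophil markers 1 of the 2 tested rose. Of 7 hepatocyte and 8 muscle fibre markers, 0 passed the limma test in adipose tissue and 0 had an unadjusted p under 0.05, with muscle fibre sums of 329.6 to 938 and 108 to 609. Mice 38 and 39 had the lowest values of Retn, Cidec and Pnpla2 among all 9 samples, with macrophage sums of 6334 and 3255 and other adipocyte sums of 3486 and 4765, the lowest of the 9. Mouse 37 had a macrophage sum of 4151, above that of mouse 39, with Retn at 163, Cidec at 2166 and Pnpla2 at 1328. The part of these cells in the adipocyte gene values was not tested.

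In liver the 2 genes that passed between the ages were Pparg, higher at 20 months, and Cidec, lower. Of the 10 genes 6 passed the filter on low values there. Of 12654 genes 19.8% passed the test, 10% higher and 9.79% lower, and 37.1% had an unadjusted p under 0.05, as did 4 of the 6. Samples of the ages did not overlap for 19.1% of all genes. Pparg was counted at 10.4, 4.44, 9.98 and 7.68 in mice A to D and at 13.4, 17.3, 19.7, 17.1 and 19.9 in mice 16, 17, 18, 19 and 74. It rose by 1.06 on the log2 scale (SE 0.21, adjusted p = 0.0119), without overlap, and kept the call in 12 of 12 other settings and in all 9 fits with a sample left out. Cidec in liver was counted at 187, 219, 143 and 151 at 5 months and at 200.03, 41.5, 20.3, 73.3 and 22.4 at 20 months. It fell by 1.79 (SE 0.55, adjusted p = 0.0432), and old mouse 16 lay inside the young range. That call was lost in 6 of 12 other settings, with adjusted p from 0.0072 to 0.151, and in every fit that left out 1 sample (up to 0.107) except the 1 without mouse 16 (0.00189). Pnpla2 ran from 289 to 454 and from 100.1 to 375 in liver, a log2 difference of -0.76 ± 0.31 with an adjusted p of 0.103. Cebpa (0.34 ± 0.15), Lipe (0.14 ± 0.12) and Fabp4 (-0.00 ± 0.31) had adjusted p-values of 0.129, 0.431 and 0.998. In liver 4 of 12 macrophage markers rose, with sums of 267 to 431 at 5 months and 298 to 975 at 20 months, and 4 of 5 B cell markers tested rose (1.31 to 8.48 and 7.58 to 16.5). Their part in these values was not tested.

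In skeletal muscle Pnpla2 was lower at 20 months and was the 1 of the 10 genes that passed the test. All 10 passed the filter there, and 19.3% of 12720 genes passed the test, 9.13% higher and 10.1% lower. The ages did not overlap for 17.3% of all genes. Pnpla2 was counted at 1009, 888, 1050 and 812 at 5 months and at 632, 685, 579, 651 and 463.5 at 20 months. It fell by 0.65 on the log2 scale (SE 0.13, adjusted p = 0.00783), without overlap. Leaving out any 1 of the 9 samples kept the call, as did 11 of 12 other settings. The 1 exception was the fit over all 27 samples, with an adjusted p of 0.0727. Of 11 macrophage markers tested in muscle 6 fell, with sums of 173 to 303 at 5 months and 99.3 to 188 at 20 months, and their part in the value of Pnpla2 was not tested. The log2 differences of Lep (1.06 ± 0.68, adjusted p = 0.271), Cidec (-0.81 ± 0.37, 0.134), Retn (-0.51 ± 0.23, 0.129) and Plin1 (0.51 ± 0.46, 0.440) had the same signs as in adipose tissue, as had those of Adipoq (0.34 ± 0.37, 0.522) and Lipe (0.00 ± 0.15, 0.990), and did not pass. Those of Pparg (0.15 ± 0.21, 0.637), Cebpa (-0.27 ± 0.13, 0.154) and Fabp4 (-0.24 ± 0.11, 0.126) had the opposite signs and did not pass either. Pnpla2 thus had the same sign in the 3 tissues, at -0.77, -0.76 and -0.65, with the liver value not past the threshold, and the difference of its age change between adipose tissue and liver was -0.00 ± 0.34 and between adipose tissue and muscle -0.12 ± 0.34.

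**Figure D4:**
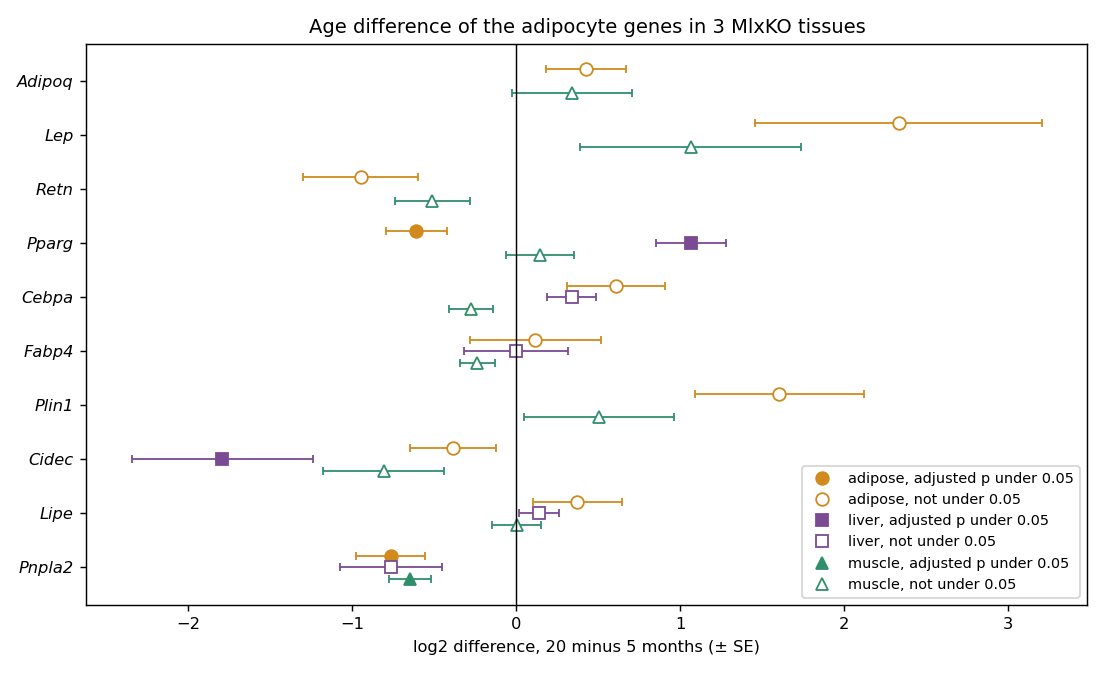
Log2 difference (20 minus 5 months, ± SE) of the 10 adipocyte genes in adipose tissue (circles), liver (squares) and muscle (triangles), filled where the adjusted p was under 0.05. Pparg lies below 0 in adipose tissue (-0.61) and above 0 in liver (1.06), and Pnpla2 lies below 0 in all 3 tissues.

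Whether the age change differed between tissues was tested in the fit over all 27 samples. Between adipose tissue and liver, Pparg passed with a difference of -1.67 ± 0.30 (SE, adjusted p = 8.53e-04), and it was the 1 of the 10 genes that did, where 15.6% of all genes passed, 6.97% higher and 8.59% lower. It stayed past the threshold in 13 of 13 other settings and in all 27 fits with a sample left out, with differences of -1.82 to -1.44 in the latter. Between adipose tissue and muscle, Cebpa passed with 0.88 ± 0.30 (adjusted p = 0.0465), where 14.7% of all genes passed, 8.34% higher and 6.34% lower. Cebpa kept this call in 7 of 13 other settings and in 10 of 27 fits with a sample left out, and lost it without mouse B (0.55, adjusted p = 0.128, with all 3 samples of that mouse left out). The differences of Lep, Cidec and Plin1 had the largest SEs of the 10 genes, 1.01, 0.64 and 0.63, and did not pass.

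**Figure D5:**
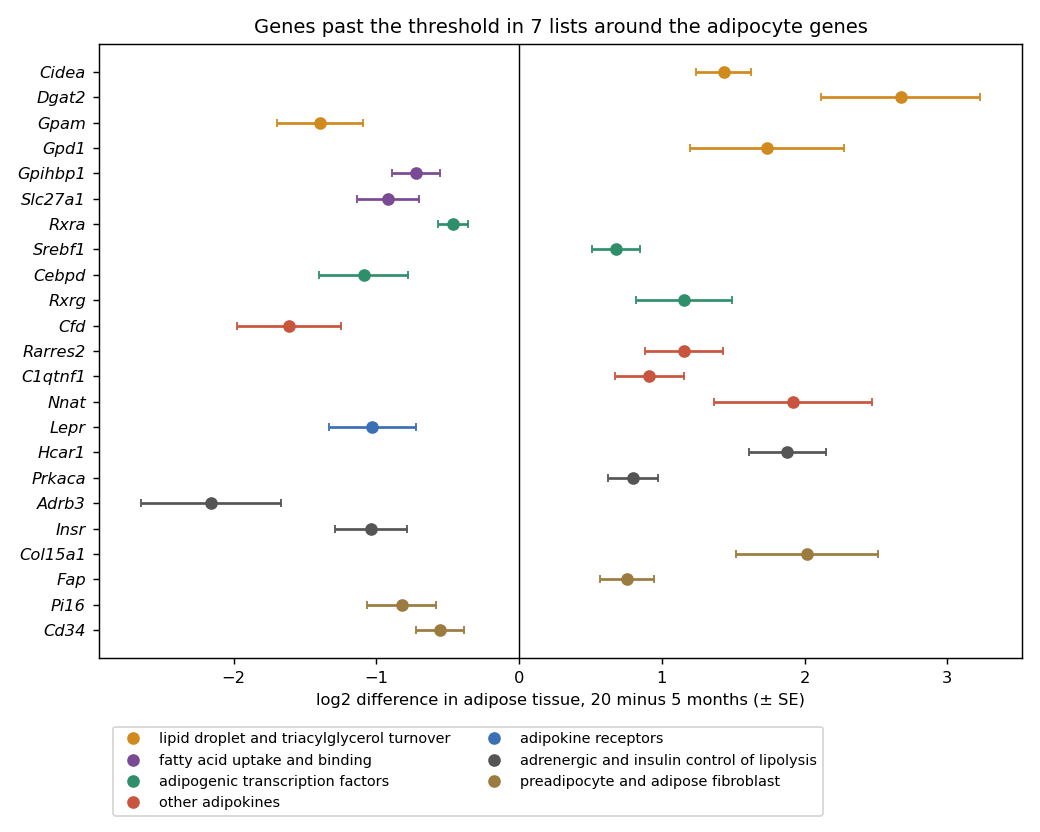
Log2 difference in adipose tissue (20 minus 5 months, ± SE) of up to 4 genes past the threshold in each of 7 lists around the adipocyte genes. Dgat2 lies farthest to the right (2.67) and Adrb3 farthest to the left (-2.16).

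Genes that work with these 10 were described in adipose tissue from 7 lists. In the list of lipid droplet and triacylglycerol turnover, 3 of 18 tested rose and 1 fell, with a median log2 difference of 0.24 beside 0.01 over all genes. Dgat2, which completes triacylglycerol synthesis, rose from 53.7 ± 35.5 to 298 ± 113 (log2 difference 2.67 ± 0.56, adjusted p = 0.0200), without overlap. Cidea, a relative of Cidec, rose from 0.824 ± 0.347 to 3.93 ± 1.03 at a low level. Its young mice ran from 0.498 to 1.25, around the filter value of 1, so it passed the filter through the old mice. Gpd1, which makes glycerol phosphate, rose from 92.5 ± 56.1 to 268 ± 103 (adjusted p = 0.0497, lost in 5 of 12 other settings). Gpam, the acyltransferase that opens glycerolipid synthesis, fell from 217 ± 88.9 to 79.7 ± 21.4.

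In the list of fatty acid uptake and binding, 2 of 10 fell and the others did not pass (median 0.03): Gpihbp1, which holds lipoprotein lipase on the capillary wall, from 111 ± 11.3 to 68.2 ± 16.6, and the transporter Slc27a1, from 790 ± 244 to 408 ± 65.6. Among the adipogenic transcription factors 2 of 13 tested rose and 2 fell (median -0.30). Rxra, the partner of PPARγ in binding DNA, fell from 129 ± 13.9 to 93.0 ± 6.24, and Cebpd, an early factor of differentiation, from 45.4 ± 11.8 to 22.2 ± 12.1. Srebf1, a driver of fatty acid synthesis, rose from 69.1 ± 11.9 to 112 ± 19.7, and Rxrg rose from 2.24 ± 1.36 to 5.78 ± 1.80 at a low level.

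In the list named other adipokines, 3 of 14 tested rose and 1 fell (median 0.04). Secretion was not measured, and the name of the list does not show that each product, such as that of Nnat, is secreted. Cfd, which encodes the complement protease adipsin, fell from 2943 ± 308 to 1076 ± 622, with all 5 old mice (548 to 2121) below the young range of 2715 to 3375. Rarres2, which encodes chemerin, rose from 102 ± 45.1 to 212 ± 17.8, C1qtnf1 from 63.8 ± 21.8 to 118 ± 25.3 and Nnat from 135 ± 102 to 392 ± 99.9. Of 6 adipokine receptors tested, Lepr, the leptin receptor, fell from 8.18 ± 4.15 to 3.36 ± 1.41 and the others did not pass (median -0.38).

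In the list of adrenergic and insulin control of lipolysis, 3 of 14 tested rose and 3 fell (median 0.51). Adrb3, the β3-adrenergic receptor that starts lipolysis in white fat, fell from 579 ± 172 to 155 ± 114 (log2 difference -2.16 ± 0.49, adjusted p = 0.0246), without overlap. Its call held in 12 of 12 other settings and in 4 of 9 fits with a mouse left out. Hcar1, a lactate receptor that restrains lipolysis, rose from 4.96 ± 1.95 to 20.8 ± 6.36 (1.88 ± 0.27, adjusted p = 0.00921), in 12 of 12 settings and in all 9 such fits. Prkaca, the catalytic subunit of protein kinase A, rose from 49.8 ± 12.8 to 85.5 ± 10.1, and the insulin receptor Insr fell from 203 ± 64.9 to 98.5 ± 27.8. In the list of preadipocytes and adipose fibroblasts 2 of 11 tested rose, Col15a1 (58.8 ± 39.5 to 204 ± 62.8) and Fap (4.30 ± 1.30 to 7.86 ± 1.44), and 2 fell, Pi16 (35.2 ± 12.3 to 19.3 ± 5.73) and Cd34 (78.4 ± 17.8 to 52.7 ± 8.27), with a median of -0.08. The shares called in these lists stand beside 19.1% of all genes. Of the 23 genes named from the lists, Hcar1 and Cidea, the latter at a low level, kept their calls with each of the 9 mice left out. Dgat2 did in 8 fits, and the other 20 in 1 (Cd34) to 6 (Gpam, Prkaca, Rxra), with Cebpd, Lepr and Pi16 at 2. In the other settings 11 of the 23 lost the call at least 1 time, Gpd1 in 5, Rxrg in 3 and the others in 1 or 2.

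The genes most alike in pattern were sought among 10720 others with a mean of at least 5 in adipose tissue, by Pearson's r of log2 values over the 9 samples after the mean of each age was subtracted. For Adipoq they were Smim19 (r = 0.959), 1190005I06Rik (0.956) and Fundc2 (0.955). For Lep they were Itga7 (0.990), Dnajb14 (0.988) and B4gat1 (0.985), and for Retn Scn7a (0.981) and Rbp7 (0.975). With 9 samples and 10720 genes such values are a description only. Among the 10 genes, Cebpa and Plin1 (0.936), Cebpa and Lipe (0.928) and Fabp4 and Plin1 (0.921) varied most alike, and Cidec was closest to Pnpla2 (0.832) and Retn (0.830), while r between Pnpla2 and Plin1 was 0.00. The points share library and scaling, and mouse B is far from the others in several of these genes.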

How the data were processed

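RNA-seq libraries of adipose tissue, liver and skeletal muscle from MlxKO mice were grouped by the labelled tissue and age. The authors mapped reads and counted them per gene in CLC Genomics Workbench, for which genome and annotation are not given in the sources used here. What the authors deposited is a normalised signal, CPM values that were then divided by 1 factor for every sample. In every sample 100% of values were whole multiples of 1 read (within 0.01 read), so the reads were recovered. CPM had been assumed in the design, and its tests were kept.

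The main test was limma 3.58.1 (R 4.3.3) with a variance trend on log2(value + 1), keeping genes that reached a value of 1 in 4 or more samples of the fit, with Benjamini-Hochberg adjustment over all genes tested and a threshold of 0.05. This scale understates changes of low genes. Ages were compared within each tissue, and tissues and differences of age changes in 1 fit over 27 samples. As alternatives, the pseudocount was set to 0.1 or 0.5, the filter was dropped or replaced by a mean of 5 or more, and libraries were scaled by median-of-ratios factors, by totals without the 20 most abundant genes or by quantiles. Fits were also made without the trend, with weights for samples, with edgeR 4.0.16 or DESeq2 1.42.0 on the recovered reads, over all 27 samples, with a replicate block for the mouse, and without each sample in turn. Leaving out all 3 samples of mouse B was added after seeing the data. The procedure was also run on counts simulated with the same dispersion setting for every gene, whereas the spread between mice differed from gene to gene here. No outcome of that run is used here.

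Depth was 14384695 to 25673919 reads on genes, and a floor of 3 reads corresponded to 0.0703 to 0.242 in value. Floors cover counting error only. Replicates were compared in 48 pairs, of which 0 were identical and all differed beyond counting noise (chi-square per degree of freedom at least 7.41). The labels name no separate cultures or litters, so p-values measure the spread between these mice. The mouse numbers at 5 months pair the tissues because the same animals gave them, and deviations of same-mouse samples correlated by 0.136 on average (-0.02 to 0.294 over 12 pairs).

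The 10 genes and all lists were chosen with earlier results of these data known. All 10 genes are named, and from each list up to 4 genes past the threshold with the smallest adjusted p in adipose tissue. Likeness is given for the 3 closest genes of each adipokine, of which 1 is not reported here. Gene coordinates are from RefSeq on GRCm38.p6, matched by gene ID, and promoters also from RefSeq. Exon lengths and strands are from GENCODE, matched by symbol. The labels give GRCm38.p6 and mm10 as builds.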

Additional observations from a re-analysis of the deposited data

Results flagged for a closer look

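Among 101 groups of 4 or 5 samples of the adipocyte genes and the list genes named, 5 held a sample far from the others, where chance alone gives about 1 in 20. In muscle at 5 months, mouse B had the highest Pparg, 8.63 against 3.91 to 4.46 in the other 3 mice, and the lowest Lipe, 49.2 against 57.9 to 59.6. In the same group, mouse C had the lowest Cidec, 12.99 against 24.3 to 26.5. In adipose tissue at 20 months, Cebpd was highest in mouse 36, at 43.3 against 14.2 to 19.7, and Cidea was highest in mouse 38, at 5.74 against 3.35 to 3.85.

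The age change differed between tissues for 2 genes by the test of the difference itself in limma. For Pparg the age change in adipose tissue minus that in liver was -1.67 (adjusted p = 8.53e-04), and for Cebpa the age change in adipose tissue minus that in muscle was 0.88 (adjusted p = 0.0465).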

How the results depend on the processing

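The number of adipocyte genes called in adipose tissue between the ages, 2, was 0 without a filter, 1 with median-of-ratios factors, with totals without the 20 most abundant genes, with quantile normalization, without a variance trend and with edgeR, 4 with DESeq2, 6 with all 27 samples in 1 fit and 7 with sample weights, which called 8456 of the 14005 genes. In liver the count of 2 was 1 without a filter, without a trend, with edgeR and with DESeq2, and 4 with sample weights. In muscle the count of 1 was 0 with all 27 samples in 1 fit. For the age change in adipose tissue minus that in liver, 1 became 2 with quantile normalization and without the 3 samples of mouse B, and 4 with sample weights. For adipose tissue minus muscle, 1 became 0 with a pseudocount of 0.1, without a filter, with totals without the 20 most abundant genes, without a trend and with edgeR, and 2 with sample weights. Leaving out each sample gave 0 to 4 genes in adipose tissue, 1 to 3 in liver, 1 to 2 in muscle, 1 to 3 for adipose tissue minus liver and 0 to 2 for adipose tissue minus muscle. The 4 comparisons of tissues called 10 of 10 genes in every setting and with each sample left out, except for 9 between adipose tissue and liver at both ages with totals without the 20 most abundant genes and at 5 months with quantile normalization, where Cebpa was lost. With the mouse as a replicate block, the counts were 1, 1, 10, 10, 10 and 10 in the 6 comparisons over all samples, and 0 of 60 gene values changed side or direction. The causes were not tested.

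Directions turned in these cases. Fabp4 in liver was 0.000143 with a pseudocount of 0.1, 0.16 with totals without the 20 genes, 0.12 with sample weights and 0.00236 with DESeq2. Lipe in muscle was -0.00750 with median-of-ratios factors. Between adipose tissue and liver, the difference of age changes became -0.16 (sample weights) and -0.0927 (without mouse B) for Cebpa, -0.10 (totals without the 20 genes), -0.0320 (sample weights) and -0.32 (without mouse B) for Fabp4, -0.18 (sample weights) and -0.11 (without mouse B) for Lipe, and 0.00056 (pseudocount of 0.1) and 0.0138 (median-of-ratios factors) for Pnpla2. Between adipose tissue and muscle it became -0.0378 (totals without the 20 genes), -0.0843 (edgeR), -0.0589 (DESeq2) and -0.11 (without mouse B) for Adipoq, and 0.0832 (edgeR) and 0.12 (DESeq2) for Retn. Cebpa in adipose tissue minus liver became 0.10 and 0.14 at 5 and 20 months (totals without the 20 genes) and 0.32 and 0.57 (quantile normalization). With a sample left out, directions also turned for Fabp4 in adipose tissue (-0.19 to 0.34) and liver (-0.21 to 0.21), Lipe in muscle (-0.0645 to 0.0892), and the difference between adipose tissue and liver for Cebpa (-0.0792 to 0.44), Fabp4 (-0.19 to 0.34), Lipe (-0.0522 to 0.35) and Pnpla2 (-0.25 to 0.23), and between adipose tissue and muscle for Adipoq (-0.20 to 0.27). Of the values outside the fits with a sample left out, the quantile value of Cebpa at 20 months passed the threshold (adjusted p = 0.0225) and the others did not.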

Other observations

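The 4 mice at 5 months gave adipose tissue and muscle from the same animals. The order of the mice was the same in both tissues for 2 of the 10 genes: Lep, lowest in mouse B and then rising through A, C and D, and Pnpla2, lowest in mouse D and then B, A and C. For Lep the muscle values were 0.726, 2.77, 3.21 and 11.4 beside 17.6, 112, 336 and 480.3 in adipose tissue, a spread of 15.7-fold and 27.3-fold. In muscle, mouse B had the lowest value for 4 of the 10 genes. With 4 mice and 24 possible orders, these are descriptions, and no test was made.

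In liver mouse B had the lowest Pparg of the 4 young mice (4.44) and the highest Cidec (219) and Pnpla2 (454).

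A sum over 6 markers of brown fat ran from 9.72 to 25.3 at 5 months and from 15.4 to 35.8 at 20 months in adipose tissue. At 5 months the same sum was 357 to 491 in liver, led by Elovl3, and 732 to 1036 in muscle, led by Cpt1b. The sum is therefore not particular to brown fat. Of the 4 markers tested in adipose tissue 2 rose, beside 9.75% of all genes tested.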
